A study of Homo sapiens with 2 samples.

Results

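The genes of CD73 and adenosine handling were taken as a set of 6, found by exact gene name in the table of expression values: NT5E, ENTPD6, ENTPD4, ADORA2B, ADA and ADK. All 6 were present, each on 1 line, and 0 were absent, among 12936 named genes in all. They were chosen by name with the values of these same libraries already known, NT5E having stood out as a message higher in the knockdown library. What follows therefore describes their levels and tests nothing. The comparison was between A549 cells with MYOCD knocked down and wild type A549 cells. A549 is an established human lung adenocarcinoma line, and MYOCD encodes myocardin, a coactivator of serum response factor that drives muscle genes. A doxycycline treatment of 72 h is given in the labels of both libraries, yet the series design describes the wild type cells as without treatment. Whether the wild type cells had doxycycline is therefore unsettled, and an effect of the drug and of the knockdown cannot be told apart if they did not. The knockdown sample is titled MYOCD-/-, yet its genotype label says knockdown, and the sources used here do not say by what means. With 1 library a group there is no replicate error, no difference was tested, and every fold below compares those libraries only.

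Extracellular ATP is cut to AMP by ecto-nucleotidases, and CD73, the product of NT5E, removes the last phosphate to give adenosine. Adenosine acts on G protein-coupled receptors, of which the A2B receptor, encoded by ADORA2B, raises cAMP and is a main adenosine receptor of lung epithelium. Adenosine taken back into cells is phosphorylated to AMP by adenosine kinase (ADK) or converted to inosine by adenosine deaminase (ADA).

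Values are in RPKM, which corrects reads for the length of the transcript and the size of the library, so levels can be compared between genes. No read counts were given and the depth of each library is unknown, so no counting interval could be set. Over all loci the median was 8.94 RPKM in the knockdown library and 9.06 RPKM in the wild type library. The targeted gene was close to the lowest values in the table: MYOCD had 0.400 RPKM in the knockdown library and 0.881 RPKM in the wild type library. The fixed epithelial and A549 markers were all present (8 of 8, summing to 4437 RPKM in the knockdown and 4508 RPKM in the wild type library). The highest was KRT18, with 1683 RPKM in the knockdown and 1776 RPKM in the wild type library. The lowest was EPCAM, with 2.15 RPKM in the knockdown and 2.24 RPKM in the wild type library. None of 4 endothelial markers was found, while 1 of 6 fibroblast markers (COL1A1, 2.41 RPKM in the knockdown against 2.76 RPKM in the wild type library) and 2 of 4 leukocyte markers were. The leukocyte markers, CD14 and LYZ, summed to 4.10 RPKM in the knockdown and 3.71 RPKM in the wild type library.

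In the knockdown library the message for CD73 was about doubled and that of ENTPD6, a nucleoside diphosphatase, was higher by more than 1.5-fold. The messages for the A2B receptor and for the enzymes that clear adenosine were at similar levels in both libraries. Differences are log2 ratios, knockdown over wild type, after adding 1 to each RPKM, a scale that shrinks the change of low genes. On this scale 0 of the 6 genes passed 2-fold upward and 0 passed it downward. The background was 12158 named genes averaging 1 RPKM or more, of which 79 (0.65%) passed 2-fold upward and 88 (0.724%) downward. With the libraries rescaled to equal summed RPKM over all loci these counts were 68 higher and 140 lower. A lower size rule of 1.5-fold, set after the values were seen, was met upward by 2 of the 6, NT5E and ENTPD6, against 201 (1.65%) of all genes. It was met downward by 0 of the 6, against 389 (3.2%) of all genes. With equal summed RPKM over all loci, which moves the median of all genes by -0.18, ENTPD6 had a log2 change of 0.44. Only NT5E of the 6 then met 1.5-fold, beside 108 genes higher and 781 lower in all. With a pseudocount of 5, too, only NT5E of the 6 met it. Sums over all loci, which include the unnamed loci left out of the comparison, were 1.17e+06 RPKM in the knockdown and 1.02e+06 RPKM in the wild type library. Sums over named genes were 592270 RPKM in the knockdown and 589490 RPKM in the wild type library. With these made equal, ENTPD6 was at 0.63, and both NT5E and ENTPD6 met 1.5-fold. Both also met it with equal upper quartiles of named genes, or with their median log2 ratio set to 0. The median log2 change was 0.11 over the 6 genes and 0.01 over all genes, of which 52.1% were above 0.

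**Figure D1:**
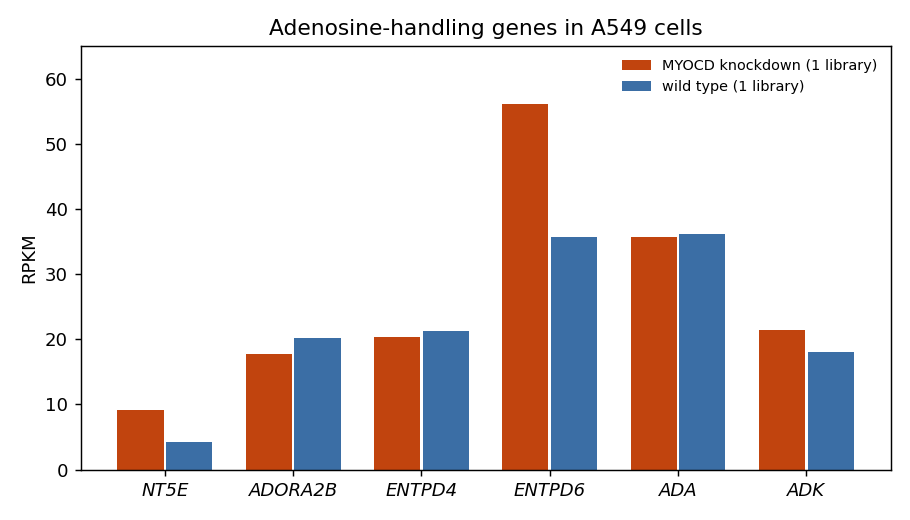
Level in RPKM (vertical axis, from 0) of each adenosine-handling gene in the MYOCD knockdown library (left bar) and the wild type library (right bar), 1 library each, so there are no error bars. NT5E and ENTPD6 have visibly taller knockdown bars (9.21 and 56.1 RPKM in the knockdown library, against 4.30 and 35.7 RPKM for wild type), and the other pairs of bars are close in height.

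NT5E encodes CD73, a 5′-nucleotidase held on the outer face of the plasma membrane by a lipid anchor. It had 9.21 RPKM in the knockdown library and 4.30 RPKM in the wild type library, a ratio of 2.14. Its log2 change was 0.95, or 1.10 with no pseudocount, so it lay just short of the 2-fold rule on the first scale and past it on the second. Only 86 named genes had a higher log2 change, which puts NT5E at rank 87 of 12158. Among 2452 other protein-coding genes whose mean lay within 1.5-fold of its own, 4 (0.163%) were at least as far up. Of those 2452 genes, 95% had log2 changes between -0.64 and 0.48. NT5E was chosen with its value known, so its rank and this share describe it and test nothing. In level, NT5E was the lowest of the 6 genes in either library. It lay above 40.7% of named genes in the knockdown library and above 20.6% in the wild type library.

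NT5E occupies chromosome 6 from 85449584 to 85495791, plus strand (GENCODE release 29, GRCh38), with no other annotated gene overlapping it. Of the motifs looked for in the 250 bases before its RefSeq start, it holds the cAMP response core TGACGT once, 127 bases before the start. It also holds the GC box GGGCGG 2 times, on the minus strand as CCGCCC, 72 and 49 bases before the start. The TGACGT site is shown because the A2B receptor signals through cAMP, and because NT5E alone among the promoters of the set held in the RefSeq table has it. The 30 bases around it (GRCh38.p14, chr6:85449944-85449973, plus strand, motif in capitals) also lie in the first exon of a longer annotated NT5E transcript:
NT5E: ggtcggatcgggTGACGTcgcgaacttgcg
The core, on either strand, occurs in 7.10% of 35116 RefSeq promoter windows of the same length. That share is not matched for base content. The NT5E window has 75.2% G and C bases, beside a median of 58% over all windows. The CArG box, the site bound by serum response factor, was found in none of the 7 promoter windows of NT5E, ENTPD6, ADORA2B, ADA and ADK, and in 1.16% of all windows. A match is a string of letters and shows no binding, and a missing match covers only that window.

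Genes around NT5E did not show a change of its size. SNX14, a sorting nexin gene on the other strand, 9.71 kb beyond it, had 22.0 RPKM in the knockdown library and 20.5 RPKM in the wild type library. TBX18, a T-box factor on the other side at 685 kb, had 13.3 RPKM in the knockdown library and 15.8 RPKM in the wild type library. Of 19 protein-coding genes with a value within 3 Mb, 11 were above 0 and 8 below, beside 52.1% of all genes above 0. Their log2 changes ran from -0.33 to 0.35, and genes averaging below 1 RPKM are included here. The lowest was RIPPLY2, with 0.340 RPKM in the knockdown library and 0.684 RPKM in the wild type library, a fold that adding 1 shrinks. The highest was SYNCRIP, an RNA-binding protein gene 112 kb away.

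**Figure D2:**
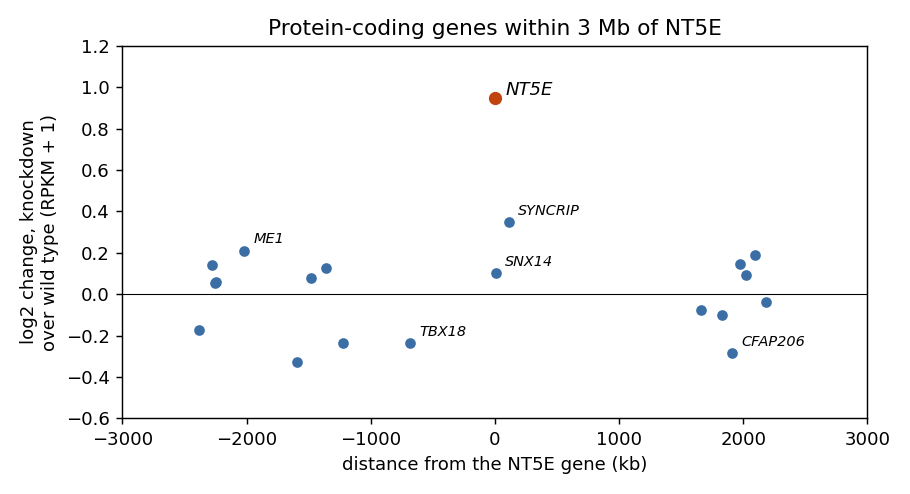
Log2 change of RPKM + 1, knockdown over wild type (vertical axis), of protein-coding genes against their distance in kb from the NT5E gene (horizontal axis). Each point is 1 gene with 1 library per group. NT5E stands at 0.95, and the 19 others, which include genes averaging below 1 RPKM, lie between -0.33 and 0.35.

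Among the genes whose pair of levels was close to that of NT5E were FBXO4, NHLRC3, the cell cycle phosphatase gene CDC25A and CCDC103. Likeness here is the distance between pairs of log2(RPKM + 1) values over 2 libraries, which was 0.19, 0.21, 0.22 and 0.23 for these 4 genes in that order. FBXO4 had 8.12 RPKM in the knockdown library and 4.68 RPKM in the wild type library. The log2 changes of the 4 were smaller than that of NT5E, from 0.62 for CCDC103 to 0.68 for FBXO4. With a single library per group this likeness is of level and fold only.

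**Figure D3:**
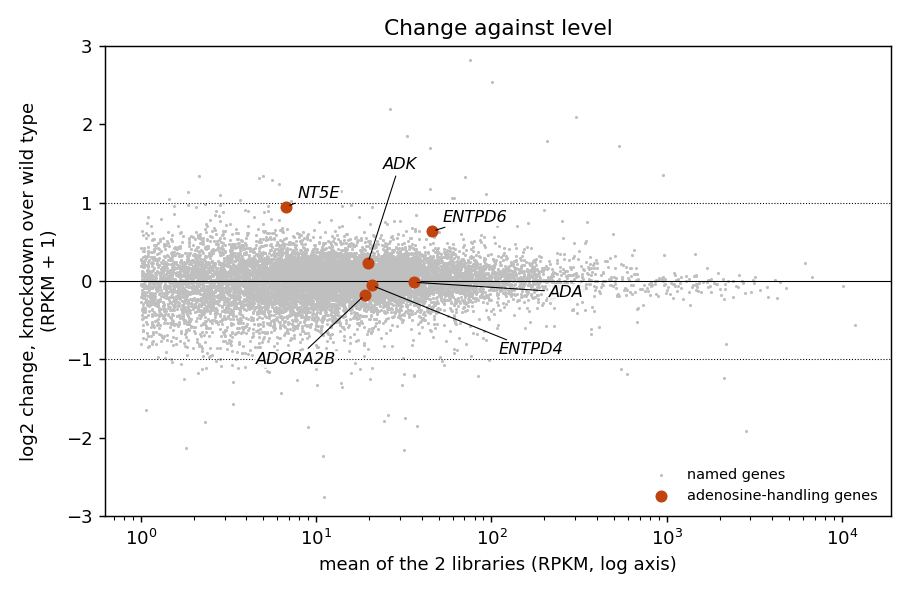
Log2 change of RPKM + 1, knockdown over wild type (vertical axis), against the mean of both libraries in RPKM (horizontal log axis) for named genes averaging 1 RPKM or more. Large points are the adenosine-handling genes, dotted lines mark 2-fold, and 86 genes beyond a log2 change of 3 in either direction are not drawn. NT5E lies just under the upper line and ENTPD6 on the upper edge of the cloud.

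ENTPD6 encodes NTPDase6, which removes a phosphate from nucleoside diphosphates and is found in the Golgi and in secreted form. It had 56.1 RPKM in the knockdown library and 35.7 RPKM in the wild type library, a ratio of 1.57 and a log2 change of 0.64. This made it the highest of the 6 in the knockdown library, while in the wild type library it stood second, just under ADA. Among 1590 other protein-coding genes within 1.5-fold of its mean, 8 (0.503%) were at least as far up. In RPKM the difference of ENTPD6, 20.3, exceeded that of NT5E, 4.92, although its fold was smaller.

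The gene spans chromosome 20 from 25195693 to 25226729, plus strand. An unclassified transcript, AL035252.4, shares 282 exonic bases with its last exon on the other strand, and whether the counting used strand is not given, so reads of both cannot be told apart. A short RNA gene of the Y RNA family lies in an intron. PYGB, the brain glycogen phosphorylase gene 21.3 kb beyond it, had 69.7 RPKM in the knockdown library and 60.4 RPKM in the wild type library. VSX1, on the other side, had 0.815 RPKM in the knockdown library and 1.00 RPKM in the wild type library.

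The sequence before ENTPD6 is shown as the second gene of the set past 1.5-fold, from 250 to 20 bases before its first RefSeq start, ending where the annotated exons begin (GRCh38.p14, chr20:25195462-25195692, plus strand). Capitals mark the GC box GGGCGG, here on the minus strand as CCGCCC:
ENTPD6: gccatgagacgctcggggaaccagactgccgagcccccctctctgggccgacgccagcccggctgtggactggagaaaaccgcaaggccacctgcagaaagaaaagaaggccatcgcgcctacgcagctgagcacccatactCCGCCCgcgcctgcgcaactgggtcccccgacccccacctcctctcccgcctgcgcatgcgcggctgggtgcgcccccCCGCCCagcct
The GC box is common to each of the 7 windows of the set in the table and to 42.6% of all promoter windows, so it does not set ENTPD6 apart. The hypoxia response core, searched as ACGTG or GCGTG on both strands, was found in windows of ADORA2B, ENTPD6, ADA and ADK but not in that of NT5E. It occurs in 43.2% of all windows. The share of G and C bases ran from 57.6% to 80% in the 7 windows of the set, beside a median of 58% over all windows. The motif shares over all windows are not matched for base content.

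ADORA2B, the A2B receptor gene, had 17.7 RPKM in the knockdown library and 20.1 RPKM in the wild type library. The ratio was 0.877 and the log2 change -0.18. Of 2715 protein-coding genes at a like level, 465 were at least as far down, or 17.1%. It was the most abundant of the adenosine receptor messages measured in both libraries. ADORA2A, which encodes the receptor most like it, had 1.02 RPKM in the knockdown library and 1.24 RPKM in the wild type library. ADORA1, the A1 receptor gene, had 0.662 RPKM in the knockdown library against 0.567 RPKM in the wild type library, and ADORA3 was not among the values used here. The ADORA2B message was thus 17.4 times that of ADORA2A in the knockdown library and 16.3 times in the wild type library.

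ADORA2B spans chromosome 17 from 15944917 to 15975746, plus strand, and lies 3.18 Mb from MYOCD itself. Between them, 8 protein-coding genes had a value, with log2 changes from -0.57 to 0.62 and a median of 0.09. ZSWIM7, which ends 0.814 kb from ADORA2B on the other strand, had 11.9 RPKM in the knockdown library and 13.7 RPKM in the wild type library. Its log2 change of -0.19 was close to that of ADORA2B. MEIS3P1, a pseudogene on the other side, had 7.30 RPKM in the knockdown library and 6.51 RPKM in the wild type library.

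The enzymes that clear adenosine differed less than NT5E. ADA had 35.8 RPKM in the knockdown library and 36.1 RPKM in the wild type library, a log2 change of -0.01. ADK had 21.4 RPKM in the knockdown library and 18.1 RPKM in the wild type library, a ratio of 1.19 and a log2 change of 0.24. For ADK, 367 of 2672 protein-coding genes at a like level (13.7%) were at least as far up, and for ADA 763 of 1920 (39.7%) were at least as far down. ADA outranked ADK in both libraries, by 1.67 times in the knockdown and 2.0 times in the wild type library. Since ADA was level and NT5E was not, NT5E stood at 0.258 of ADA in the knockdown library and at 0.119 of ADA in the wild type library.

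ADK spans chromosome 10 from 74151185 to 74709303 on the plus strand. Its exons share 227 bases with the antisense gene AC022540.1 and 188 bases with the pseudogene MRPL35P3, so its value may hold reads of both. AP3M1, an adaptor protein subunit gene that starts 0.122 kb from ADK and runs the other way, had 28.9 RPKM in the knockdown library and 20.9 RPKM in the wild type library. Its log2 change of 0.44 was larger than that of ADK. On the far side KAT6B, a histone acetyltransferase gene, had 3.44 RPKM in the knockdown library and 3.43 RPKM in the wild type library.

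ADA runs on the minus strand of chromosome 20 from 44619522 to 44652233 and shares 46 exonic bases with PKIG, an inhibitor of protein kinase A on the other strand. PKIG had 15.7 RPKM in the knockdown library and 14.9 RPKM in the wild type library. Of its neighbours, SERINC3 had 57.8 RPKM in the knockdown library and 54.1 RPKM in the wild type library. WISP2, a secreted matrix protein gene, had 9.34 RPKM in the knockdown library and 12.1 RPKM in the wild type library.

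ENTPD4 encodes NTPDase4, an enzyme of the Golgi and of lysosomes or autophagic vacuoles that prefers uridine nucleotides. It had 20.4 RPKM in the knockdown library and 21.3 RPKM in the wild type library, a ratio of 0.960 and a log2 change of -0.06. ENTPD6 was 2.75 times ENTPD4 in the knockdown library and 1.68 times in the wild type library. ENTPD4 lies on the minus strand of chromosome 8 from 23385783 to 23457695 and shares 120 exonic bases with LOXL2, a lysyl oxidase gene on the same strand. LOXL2 had 71.1 RPKM in the knockdown library and 57.0 RPKM in the wild type library. Its neighbours were SLC25A37, a mitochondrial iron carrier gene, with 34.5 RPKM in the knockdown against 46.7 RPKM in the wild type library, and R3HCC1, with 14.8 RPKM in the knockdown and 14.9 RPKM in the wild type library.

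The order of levels differed in places between the libraries. In the knockdown library it ran ENTPD6, ADA, ADK, ENTPD4, ADORA2B and NT5E. In the wild type library it ran ADA, ENTPD6, ENTPD4, ADORA2B, ADK and NT5E. Without replicates there is no spread to tell neighbours apart, and ADK, ENTPD4 and ADORA2B lay within 17.7 to 21.4 RPKM in the knockdown library and within 18.1 to 21.3 RPKM in the wild type library. NT5E was last in both.

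The rest of the adenosine pathway was read from 7 lists holding 136 genes, none of them members of the set. Of these, 88 had a mean of at least 1 RPKM, 6 lay below it, 4 were measured only in loci shared with other genes, and 38 were not among the values used here. At 2-fold, 0 of the 88 were higher and 0 lower, beside 0.65% and 0.724% of all genes. At 1.5-fold, 4 were higher and 3 lower, beside 1.65% and 3.2% of all genes. The median log2 change over the 88 was -0.0047, beside 0.01 over all genes. Of the 88, 41 were above 0 and 47 below, while 52.1% of all genes were above 0. Such signs hang on the scaling. Equal summed RPKM over all loci, with the unnamed loci included, moved the median of all genes by -0.18. Scalings on named genes alone moved it by between -0.0061 and -0.0342.

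**Figure D4:**
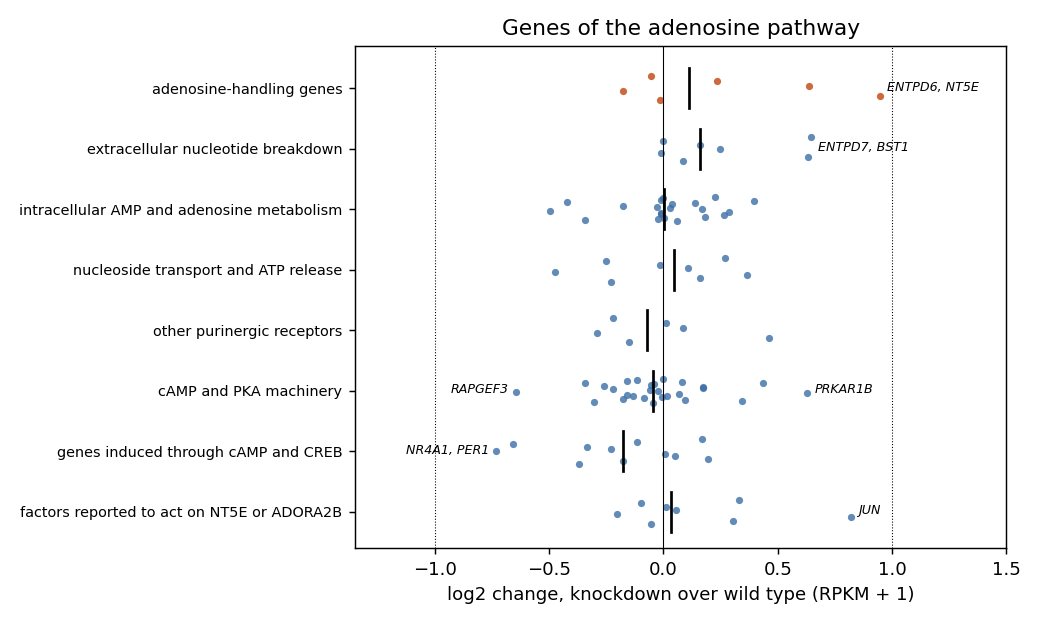
Log2 change of RPKM + 1, knockdown over wild type (horizontal axis), of each gene averaging 1 RPKM or more, by list (rows). Points are genes with 1 library per group, vertical bars are list medians, dotted lines mark 2-fold, and genes past 1.5-fold are named. All points lie inside the dotted lines, and NT5E is the farthest point to the right.

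The list named for extracellular nucleotide breakdown had a median of 0.16 over 7 of 17 listed genes. Of the 7, 5 were above 0 and 2 below, beside 52.1% of all genes above 0. The list also holds internal enzymes such as ENTPD7, so the median is not one of surface enzymes alone. ENTPD1, which encodes CD39 and makes the AMP that CD73 uses, was at 2.62 RPKM in both libraries. NT5E was therefore 3.52 times ENTPD1 in the knockdown library and 1.64 times in the wild type library. ENTPD7, an internal NTPDase, had 3.81 RPKM in the knockdown library against 2.10 RPKM in the wild type library, and BST1, an NAD-consuming surface enzyme, had 7.33 RPKM in the knockdown library and 4.32 RPKM in the wild type library. CD38, a relative of BST1, was level at 7.05 RPKM in the knockdown library and 7.10 RPKM in the wild type library. ENTPD2, ENTPD3 and the alkaline phosphatase genes ALPL, ALPP, ALPG and ALPI were not among the values used here.

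Genes of intracellular AMP and adenosine metabolism had a median of 0.0044 over 21 of 27 genes. Of the 21, 0 were past 1.5-fold in either direction, beside 1.65% of all genes higher and 3.2% lower. MTAP, which recycles methylthioadenosine, had 27.9 RPKM in the knockdown library and 21.0 RPKM in the wild type library. AK5, an adenylate kinase gene, had 1.45 RPKM in the knockdown library and 1.01 RPKM in the wild type library. The lowest were NT5M, a mitochondrial nucleotidase gene with 7.89 RPKM in the knockdown against 11.5 RPKM in the wild type library, and AK7, with 1.80 RPKM in the knockdown and 2.75 RPKM in the wild type library. None of the cytosolic nucleotidases measured shared the fold of NT5E, and NT5C and NT5C2 had log2 changes of -0.0013 and 0.0044.

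Nucleoside transporters and ATP release channels had a median of 0.05 over 8 of 14 genes, 4 above 0 and 4 below. SLC29A1, the main equilibrative nucleoside transporter ENT1, had 46.3 RPKM in the knockdown library and 41.3 RPKM in the wild type library. SLC29A4, a transporter of monoamines and adenosine, was lowest, with 14.4 RPKM in the knockdown and 20.4 RPKM in the wild type library, followed by the pannexin gene PANX2 at a log2 change of -0.25. PANX1, the ATP release channel, had 9.53 RPKM in the knockdown library against 7.18 RPKM in the wild type library, and SLC29A3, a lysosomal transporter, had a log2 change of 0.27. The concentrative transporters SLC28A1, SLC28A2 and SLC28A3 were not among the values used here.

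Other purinergic receptors had a median of -0.07 over 6 of 20 genes, 3 above 0 and 3 below. P2RY6, a receptor for UDP, had 7.0 RPKM in the knockdown library and 4.81 RPKM in the wild type library. P2RY2, a receptor for ATP and UTP, had 2.22 RPKM in the knockdown library and 2.04 RPKM in the wild type library. The ATP-gated channel genes P2RX6 and P2RX4 were lowest, at log2 changes of -0.29 and -0.22.

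The cAMP and protein kinase A machinery, through which the A2B receptor signals, had a median of -0.04 over 27 of 34 genes. Of the 27, 9 were above 0 and 18 below, beside 52.1% of all genes above 0. PRKAR1B, a regulatory subunit of the kinase, had 13.8 RPKM in the knockdown library and 8.54 RPKM in the wild type library. RAPGEF3, which encodes the cAMP sensor EPAC1, had 2.37 RPKM in the knockdown library and 4.27 RPKM in the wild type library. GNAS, the stimulatory G protein gene, was level at 282 RPKM in the knockdown library and 284 RPKM in the wild type library. The phosphodiesterase genes PDE3B and PDE4A had log2 changes of 0.43 and -0.34.

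Genes induced through cAMP and CREB had a median of -0.18 over 11 of 15 genes. Of the 11, 4 were above 0 and 7 below, beside 52.1% of all genes above 0. Past 1.5-fold downward were 2 of the 11, beside 3.2% of all genes. NR4A1, an orphan nuclear receptor gene, had 17.4 RPKM in the knockdown library and 29.6 RPKM in the wild type library. PER1, a clock gene, had 3.82 RPKM in the knockdown library and 6.61 RPKM in the wild type library. RGS2 and AREG were highest, at log2 changes of 0.19 and 0.17. CREM, often used as a reporter of cAMP, was at 28.3 RPKM in the knockdown and 28.3 RPKM in the wild type library.

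Factors reported to act on NT5E or ADORA2B had a median of 0.03 over 8 of 9 genes. Of the 8, 5 were above 0 and 3 below, beside 52.1% of all genes above 0. JUN, an AP-1 subunit, had 22.7 RPKM in the knockdown library and 12.4 RPKM in the wild type library, a log2 change of 0.82. STAT3 had 54.7 RPKM in the knockdown library and 43.3 RPKM in the wild type library. The hypoxia factor HIF1A had 86.0 RPKM in the knockdown library and 99.3 RPKM in the wild type library, while EPAS1, which encodes HIF-2 alpha, had a log2 change of 0.31. SMAD3 had a log2 change of -0.10 and SP1 of -0.06. Whether any of these factors bears on the level of NT5E was not tested.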

How the data were processed

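RNA-seq was done on 1 MYOCD knockdown and 1 wild type A549 library. The authors deposited RPKM per locus, per the file name. The builds GRCh38.p12 and BDGP5, with TopHat2 2.0.10 and Cufflinks 2.2.1, are named per the submitters' processing notes, with no role for any. The sources used here give neither the annotation nor filters nor strand use. The higher library of any locus reached 0.652 RPKM or more, and loci low in both were not analysed here. Lines sharing a name (102 names) were summed, 308 loci naming several genes kept their joined name, and 1909 unnamed loci of 14952 were left out.

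Differences are log2 of RPKM plus a pseudocount of 1. The lists and the background were held to genes averaging 1 RPKM or more. MYOCD and genes chosen by position had no such filter. There was no test, because each group had 1 library. Depth is unknown and limits precision to an extent that cannot be stated. The members and lists were chosen with earlier results of these data known. Named genes were the members, the 2 highest and 2 lowest of each list with those past 2-fold, the 5 protein-coding genes nearest NT5E, the nearest measured neighbours, and MYOCD. One gene that this rule takes is not reported here. Others, such as CREM, GNAS, SLC29A1 and genes past the added 1.5-fold rule, were named after their values were seen. Older symbols were matched through RefSeq and GENCODE names, and 94.3% of names were found in RefSeq. Gene positions are from GENCODE release 29 (GRCh38) and promoters from RefSeq (GRCh38.p14). Python 3.11.15, numpy 2.4.6, pandas 2.3.3 and matplotlib 3.10.9 were used, and the calculation was tested on simulated data. Alternatives covered pseudocounts, the filter, scalings, repeated names and joined loci.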

Additional observations from a re-analysis of the deposited data

How the results depend on the processing

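In 11 alternative settings each of the 6 genes kept the sign of its log2 change. This is guaranteed for settings that change only the pseudocount, the filter, repeated names or joined loci. Every scaling lowered the knockdown values, so it is guaranteed there too for ADORA2B, ENTPD4 and ADA, which were already below 0. Only for NT5E, ENTPD6 and ADK could a scaling have changed the sign. With no replicates, a log2 value within 0.1 of the reported one was counted as unmoved, and a count within 1.5 times. Of 143 recomputed values, 129 were unmoved by this rule and 14 moved. The filter, repeated-name and joined-locus settings could not change any value of the 6 genes. Each gene has 1 line, no joined locus and a mean above the filters tried. The number unmoved is therefore no measure of stability. Only 1 log2 value changed sign, the median over the members with equal sums over all loci. The log2 change of NT5E was 1.08 with a pseudocount of 0.1, 0.61 with a pseudocount of 5 and 0.77 with equal summed RPKM over all loci. With pseudocounts of 0.1 and 0.5 the number of members at least 2-fold higher was 1, NT5E. Equal sums over all loci shifted the median of all genes by -0.18 and lowered ADK to 0.05 and ENTPD6 to 0.44. They gave a median log2 change of the members of -0.0802, beside 0.1046 with equal sums over named genes. The number of named genes at least 2-fold lower was 189 with a pseudocount of 0.1, 53 with one of 5 and 140 with equal sums over all loci. The count of pathway genes past 2-fold was 0 in both directions in all 11 settings. No paired analysis was possible because each group had 1 library. Depth, unknown here, sets how far values such as those of ADORA1 or RAPGEF3 can be read.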
